A study of Mus musculus with 6 samples.

Results

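The genes described here encode proteins that become fused to MLL in leukaemia, or that carry its transcriptional programme: the YEATS domain proteins Mllt3 (AF9) and Mllt1 (ENL), the histone methyltransferase Dot1l with its partners Mllt10 (AF10) and Mllt6 (AF17), the elongation factors Aff1 (AF4), Aff4 and Ell, and the chromatin tethers Men1 (menin) and Psip1 (LEDGF). They were chosen by name, and each was read from the probe set annotated with that single symbol; for Aff1, the only one with 2 such probe sets, the one with the higher mean was kept. All 10 genes were measured, among 19938 single-named genes on the arrays. RNA came from mouse bone marrow cells sorted for a green or yellow fluorescent reporter 72 hours after retroviral transduction. One group had received MSCV-MN1-IRES/YFP, a murine stem cell virus vector that carries the transcriptional coregulator MN1, and the other the vector without MN1, called MSCV-IRES-GFP in the sample labels. Each group held 3 arrays, and the transductions were repeated in 3 independent experiments according to the series description, which names the reporter YFP where the sample labels name it GFP. Neither source gives the strain, sex or age of the mice, the pooling of animals or the species of the MN1 cDNA. The title of the series concerns cooperation of MN1 with MLL fusions, and none of the 6 arrays is labelled as carrying an MLL fusion, so the comparison is of these genes in marrow cells with and without added MN1.

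MLL, encoded by Kmt2a, is a histone methyltransferase that keeps Hox genes and Meis1 active in early blood cells. When a translocation joins its first part to a partner such as AF9, ENL, AF10 or AF4, the fusion brings Dot1l and the elongation machinery to those genes, and menin and LEDGF hold it on chromatin. The same partners act in normal cells without any fusion, where AF9 and ENL read acylated histone tails through the YEATS domain, and in human blood stem cells MLLT3 is known to maintain self-renewal.

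Mllt3 was the gene of this set that stood out in size: its mean level was about 2.01-fold higher with MN1, while the other 9 genes differed little relative to the spread between arrays. By limma, no member passed an adjusted p of 0.05 over all genes, 0 of 10 higher and 0 of 10 lower. The share of all genes called at that threshold was 0%. At an unadjusted p under 0.05, 1 of 10 members was higher and 0 were lower, where 4.17% of all genes (832) were higher and 4.23% (843) lower. Once each array was centred on its median, that split over all genes was 977 higher and 400 lower. Without MN1 replicate 2 the members higher at that unadjusted p numbered 2, Mllt3 and Aff1. The MN1 arrays lay wholly above the empty vector arrays for 1 member, where this held for 5.71% of all genes, and wholly below for 0 members, where it held for 10.3%. With fewer arrays groups overlap less easily, and the first count was 2 without MN1 replicate 2 and 3 without empty vector replicate 1. The share of all genes was not taken for those sets. With the sign alone, 7 members were higher and 3 lower, against 43.3% of all genes higher. The median difference of the members was 0.12 on the log2 scale, against -0.03 over all genes. Leaving out the dimmest 40% of genes kept all 10 members, and the median over the 11963 genes left was then 0.04. Of those genes, 599 were higher and 251 lower at an unadjusted p under 0.05 (limma). The members' sign count and median rested on single arrays. The count was 10 higher without empty vector replicate 1 and 5 without empty vector replicate 2. Leaving out empty vector replicate 2 took the members' median to 0.040, MN1 replicate 3 to 0.049. Mllt3 had been pointed out by an earlier look at these arrays, so these values do not support that earlier result independently.

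**Figure D1:**
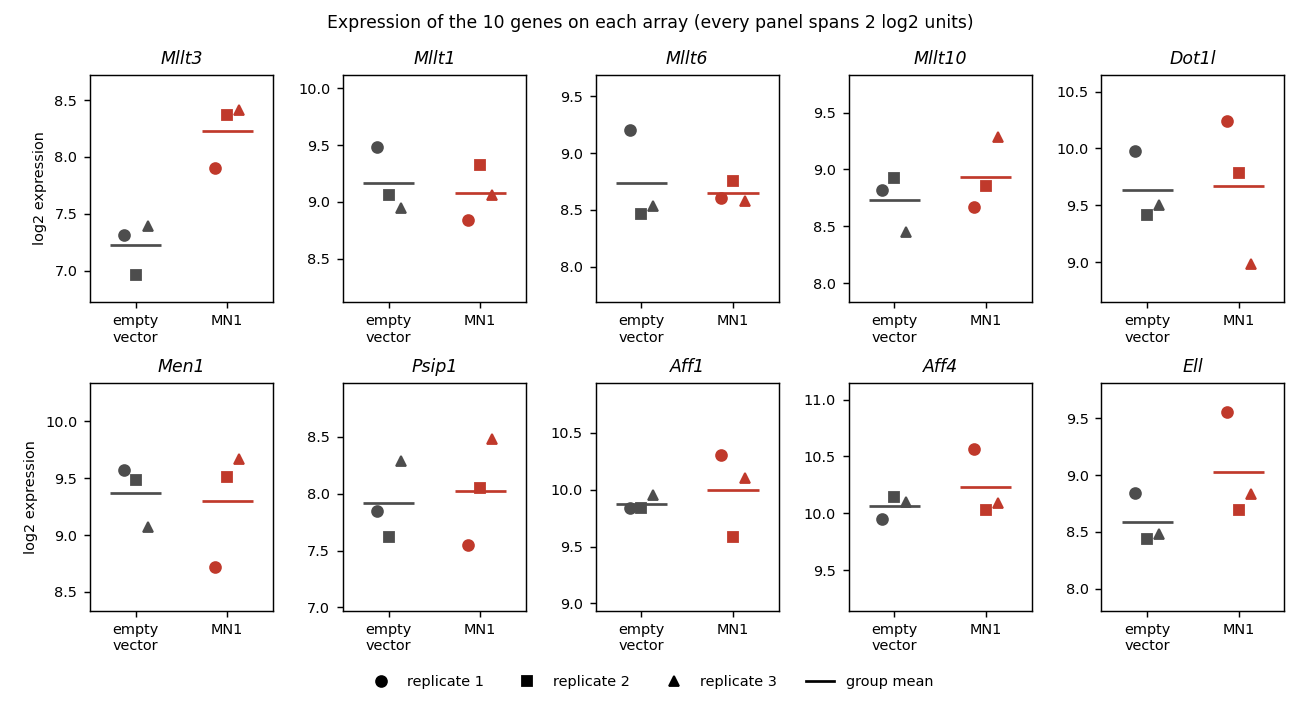
Log2 expression of each gene on each array, with empty vector in grey and MN1 in red, symbols for replicate numbers and a line at each group mean; every panel spans the same 2 log2 units. For Mllt3 the 3 MN1 arrays lay at 7.90 to 8.41 and the 3 empty vector arrays at 6.96 to 7.39, and in the other 9 panels the groups overlapped.

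The 6 arrays had medians of 5.82 to 6.01 over all probe sets (log2). Pairs of arrays correlated across genes at 0.976 to 0.987 within a group and at 0.966 to 0.992 between groups. The most alike pair thus came from different groups. How far the mouse Mn1 probe set reads the MN1 carried by the vector is unknown, since the species of that cDNA is not given. The values of this probe set were 6.47, 6.62 and 6.08 with MN1 and 5.34, 5.41 and 4.80 with the empty vector. The MN1 arrays thus lay wholly above, as held for 5.71% of all genes. The difference was 1.20 ± 0.21 (SE, log2), with an adjusted p of 0.584 (limma). Precision is limited throughout by having only 3 arrays in a group.

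Mllt3 encodes AF9, a YEATS domain protein that recruits either Dot1l or the elongation machinery. Its log2 level was 7.90, 8.37 and 8.41 on the MN1 arrays and 7.31, 6.96 and 7.39 on the empty vector arrays. The lowest MN1 array, replicate 1, still lay above the highest empty vector array. The group means were 8.23 ± 0.28 and 7.22 ± 0.23 (SD, n = 3), a difference of 1.01 ± 0.18 (SE, log2) with a 95% interval of 0.56 to 1.45. Its adjusted p was 0.584 over all genes (limma, Benjamini-Hochberg) and its unadjusted p was 0.00126, which ranked 35 of 19938 genes from the smallest. In size it exceeded 98.6% of genes. A two-sided exact permutation test of its 6 values gave p = 0.10, the smallest that 3 arrays against 3 can give. With each array left out in turn the difference ran from 0.88 to 1.17, and its unadjusted p from 0.000431 to 0.00615 (limma).

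The annotation ties the Mllt3 probe set to 3 RefSeq mRNAs, so the probe set does not show which start the transcripts used. RefSeq promoter windows, from 250 bases before a start to 50 after it on GRCm38.p6, were matched for 9 of the 10 genes by symbol. Mllt3 has 2 such windows on the minus strand of chromosome 4. Both are shown because it had the largest difference of the 10 genes and its starts are unlike each other. Capitals mark a match to any of 4 motifs searched on both strands: the nuclear receptor half-site AGGTCA, the Meis motif TGACAG, the Runx motif TGTGGT and the TATA box TATAAA.
Mllt3 upstream start, chr4:88033358-88033657: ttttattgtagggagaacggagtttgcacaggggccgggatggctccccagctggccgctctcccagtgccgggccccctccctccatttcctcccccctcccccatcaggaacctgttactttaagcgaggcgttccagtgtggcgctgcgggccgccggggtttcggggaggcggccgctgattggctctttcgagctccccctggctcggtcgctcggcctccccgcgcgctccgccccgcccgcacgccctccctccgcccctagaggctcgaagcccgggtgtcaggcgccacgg
Mllt3 downstream start, chr4:87806274-87806573: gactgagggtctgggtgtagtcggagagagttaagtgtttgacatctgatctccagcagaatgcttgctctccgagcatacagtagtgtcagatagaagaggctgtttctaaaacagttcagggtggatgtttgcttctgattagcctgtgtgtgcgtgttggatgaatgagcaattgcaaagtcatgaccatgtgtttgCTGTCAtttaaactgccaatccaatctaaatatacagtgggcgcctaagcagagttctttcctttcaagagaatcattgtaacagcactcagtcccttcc
The upstream window holds 29 CpG dinucleotides and 70.3% G and C, and 87.1% of all windows hold fewer CpG. The downstream window holds 4 CpG and 44.7% G and C, below the median window, which holds 7 CpG and 52.7% G and C. Its 1 capitalised match is the Meis motif read on the opposite strand, which 19.2% of all 32851 windows of that length hold. The letters of the other 3 motifs occur in 16.3% (AGGTCA), 16.8% (TGTGGT) and 13.6% (TATAAA) of windows and in neither Mllt3 window. These matches describe letters and are not binding sites. The paralog Mllt1 has 1 window, on the minus strand of chromosome 17, with 77.7% G and C and 46 CpG, a count that 98.4% of windows fall below, and it also holds 1 match to the Meis motif.

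Mllt1 encodes ENL, the closest paralog of AF9 and likewise a reader of acylated histones. Its log2 level was 8.84, 9.33 and 9.06 on the MN1 arrays and 9.48, 9.06 and 8.95 on the empty vector arrays. The groups overlapped, and both the highest and the lowest value were on replicate 1 arrays, in opposite groups. The difference was -0.09 ± 0.19 (SE, log2), with a 95% interval of -0.54 to 0.36 and an adjusted p of 0.883 (limma). That interval ends below the Mllt3 interval; a test of the 2 genes against each other was not made. The difference of Mllt1 was 0.03 without MN1 replicate 1 and 0.07 without empty vector replicate 1, so its sign rested on single arrays.

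**Figure D2:**
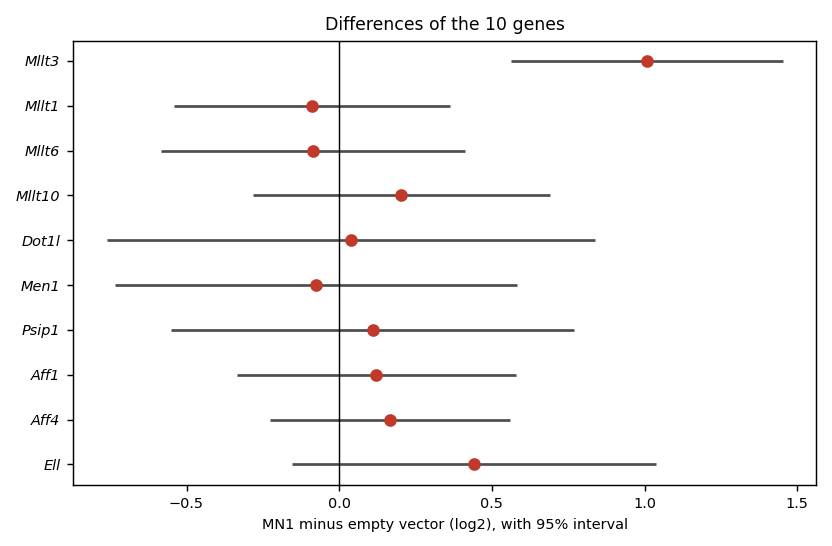
Difference of each gene, log2 level with MN1 minus that with the empty vector, as a point with its 95% interval from limma. The interval of Mllt3 ran from 0.56 to 1.45, and those of the other 9 genes held 0.

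Dot1l is the only known methyltransferase of its lysine in the core of histone H3, a mark of transcribed genes on which MLL-fusion leukaemias depend. Its log2 level was 10.25, 9.78 and 8.98 on the MN1 arrays and 9.98, 9.41 and 9.50 on the empty vector arrays. The MN1 arrays held both the highest value, on replicate 1, and the lowest, on replicate 3. The group means were 9.67 ± 0.64 and 9.63 ± 0.31 (SD, n = 3), and Dot1l was the most variable member, with a pooled within-group SD of 0.50 that exceeded that of 92.5% of genes. The difference was 0.04 ± 0.33 (SE, log2), with a 95% interval of -0.76 to 0.84 and an adjusted p of 0.974 (limma), and it turned to -0.02 after quantile normalization. It ranged from -0.25 without MN1 replicate 1 to 0.38 without MN1 replicate 3.

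Mllt10 and Mllt6 encode AF10 and AF17, related proteins that bind Dot1l. Mllt10 measured 8.67, 8.86 and 9.29 with MN1 and 8.82, 8.93 and 8.45 with the empty vector, with MN1 replicate 3 highest and empty vector replicate 3 lowest. The difference was 0.20 ± 0.20 (SE, log2) and fell to 0.03 without MN1 replicate 3. Mllt6 measured 8.61, 8.75 and 8.58 with MN1 and 9.20, 8.46 and 8.54 with the empty vector. The MN1 arrays of Mllt6 lay close together, with an SD of 0.09, between the empty vector arrays. Its difference of -0.09 ± 0.21 (SE, log2) became 0.15 without empty vector replicate 1, the one array above the rest. Their adjusted p values were 0.736 and 0.898 (limma).

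Among the elongation factors, Ell had the second largest difference of the set. Ell raises the catalytic rate of RNA polymerase II and is itself an MLL fusion partner. Its log2 level was 9.56, 8.69 and 8.84 on the MN1 arrays and 8.84, 8.44 and 8.49 on the empty vector arrays. MN1 replicate 1 lay above all others, and MN1 replicates 2 and 3 lay no higher than empty vector replicate 1. The group means were 9.03 ± 0.47 and 8.59 ± 0.22 (SD, n = 3), a difference of 0.44 ± 0.25 (SE, log2) with a 95% interval of -0.16 to 1.04 and an adjusted p of 0.610 (limma). Without MN1 replicate 1 the difference was 0.18. In size it exceeded 91.5% of genes, while its within-group SD exceeded that of 85.0%.

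Aff1 and Aff4 encode related scaffolds of the super elongation complex, which brings the kinase P-TEFb to paused polymerase. Aff4 measured 10.57, 10.03 and 10.09 with MN1 and 9.95, 10.14 and 10.10 with the empty vector. Only MN1 replicate 1 of Aff4 stood above the other arrays, and the difference of 0.17 ± 0.16 (SE, log2) became -0.0022 without that array. Aff1 measured 10.31, 9.58 and 10.10 with MN1 and 9.84, 9.84 and 9.95 with the empty vector. Its 3 empty vector arrays were the tightest group among the members, with an SD of 0.06, against 0.37 with MN1, where the arrays lay on both sides of them. The difference of Aff1 was 0.12 ± 0.19 (SE, log2), and -0.03 without MN1 replicate 1. The second probe set of Aff1, at a mean of 7.39 with MN1 and 7.16 with the empty vector, differed by 0.22 ± 0.23 (SE, log2). Adjusted p values were 0.836 for Aff1 and 0.734 for Aff4 (limma).

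Men1 and Psip1 encode menin and LEDGF, which bind the first part of MLL and so remain with every fusion. Men1 measured 8.72, 9.51 and 9.67 with MN1 and 9.57, 9.48 and 9.07 with the empty vector. Both extremes were MN1 arrays, replicate 1 low and replicate 3 high, and the difference was -0.08 ± 0.27 (SE, log2), or 0.21 without MN1 replicate 1. Psip1 measured 7.55, 8.05 and 8.48 with MN1 and 7.85, 7.62 and 8.29 with the empty vector. The replicate 3 array was the highest in each group of Psip1, and the difference was 0.11 ± 0.27 (SE, log2), or -0.12 without MN1 replicate 3. Adjusted p values were 0.932 for Men1 and 0.902 for Psip1 (limma).

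**Figure D3:**
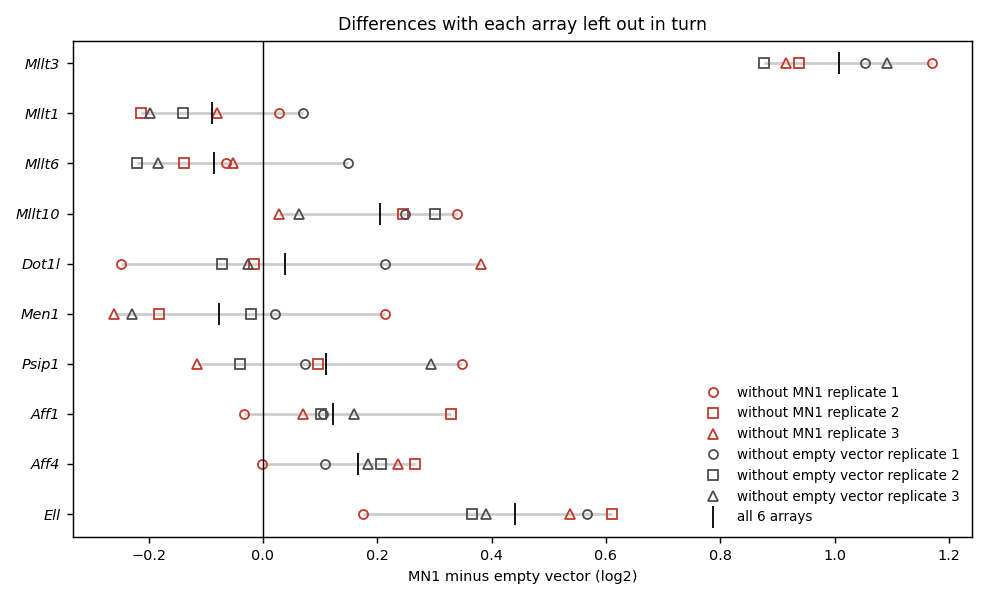
Difference of each gene, log2 level with MN1 minus that with the empty vector, with all 6 arrays (black bar) and with each array left out (open symbols, red for MN1 arrays and grey for empty vector arrays). Mllt3 stayed between 0.88 and 1.17, Mllt10 between 0.03 and 0.34 and Ell between 0.18 and 0.61, and the other 7 genes crossed 0.

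The members differed from each other in which array was extreme. MN1 replicate 1 was the highest array for 4 members, Dot1l, Aff1, Aff4 and Ell, and the lowest for 3, Mllt1, Men1 and Psip1. MN1 replicate 3 was the highest for 4 members, Mllt3, Mllt10, Men1 and Psip1, and the lowest for 1, Dot1l. The SD was wider with MN1 than with the empty vector for 8 of 10 members, where this held for 52.6% of all genes. All 10 members had a pooled within-group SD, from 0.22 to 0.50, above the median gene's 0.17. That median includes the dimmest 40% of genes, to which none of the members belonged, and RMA compresses dim values. No comparison with genes of like level was made, for the SD or for the shares of genes exceeded in size. On MN1 replicate 1 the mean level of 11 genes of S phase and mitosis was 8.96, against 9.76 to 10.23 on the other arrays, and all 11 were lower with MN1 in mean. The mean of 6 megakaryocyte genes was also highest on that array, at 11.46 against 8.68 to 10.60. Whether the array's makeup of cells plays a part in the member values was not tested.

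The genes with the pattern nearest to Mllt3 over the 6 arrays were Cd34, Ms4a6d and Armcx1. Each gene was centred on its own mean, and likeness was the root mean square difference in log2 units, which was 0.14 for Cd34, 0.16 for Ms4a6d and 0.17 for Armcx1. Cd34, a surface sialomucin of stem and progenitor cells, measured 11.59, 12.13 and 11.86 with MN1 and 11.21, 10.67 and 10.97 with the empty vector. Like Mllt3, it was lowest on empty vector replicate 2 and, of the MN1 arrays, on replicate 1. The difference was 0.91 ± 0.19 (SE, log2) for Cd34, 0.84 ± 0.16 for Ms4a6d, a tetraspan membrane protein gene of myeloid cells, and 0.87 ± 0.15 for Armcx1, an armadillo repeat gene, each with an adjusted p of 0.584 (limma). These genes were picked for likeness over these same arrays, so their likeness to Mllt3 in direction, size and single arrays is given by the choice. None of the other members came near: Psip1, the nearest, was at 0.48 with 2694 genes nearer, Mllt1 at 0.59 with 10284 nearer, and Dot1l at 0.72 with 18046 nearer. This measure counts size as well as shape, so a gene that differs little is placed far from Mllt3 by that alone.

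**Figure D4:**
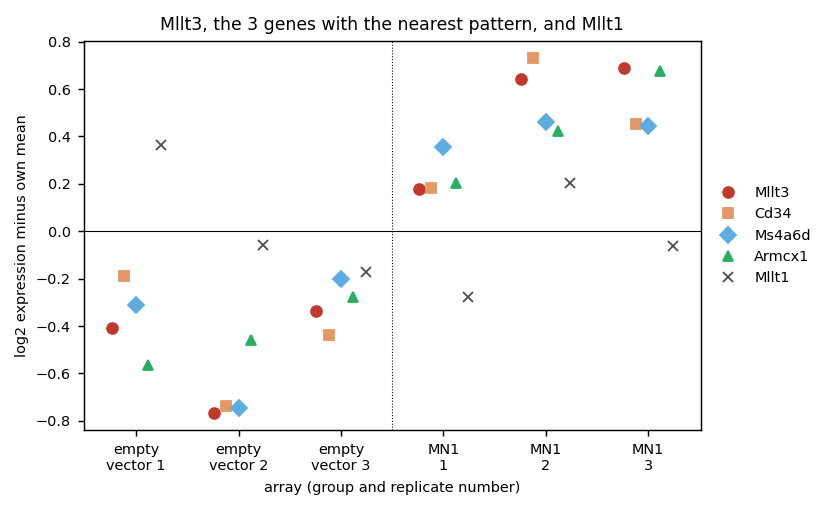
Log2 expression minus each gene's own mean on the 6 arrays, for Mllt3, the 3 genes nearest to it and its paralog Mllt1. Mllt3, Cd34, Ms4a6d and Armcx1 lay below 0 on all empty vector arrays and above 0 on all MN1 arrays, while Mllt1 did not follow the groups.

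Marker lists of the cells that sorted marrow could hold moved with the same comparison, and their part in the Mllt3 difference was not tested. In bulk RNA, more cells of a type and more RNA per cell cannot be told apart. Of 13 measured stem and progenitor markers 10 were higher, and their mean level was 8.76 to 9.21 on the MN1 arrays and 7.97 to 8.52 on the empty vector arrays. Of 12 monocyte and macrophage markers 11 were higher, at 11.17 to 11.96 against 9.81 to 10.93. All 6 megakaryocyte markers were higher, at 9.65 to 11.46 against 8.68 to 10.07, and 8 of 11 B lineage markers, at 6.27 to 7.23 against 5.85 to 7.12. Lower with MN1 were 12 of 13 late granulocyte markers, at 9.0 to 9.76 against 9.30 to 11.72, and all 7 primary granule markers, at 7.90 to 9.89 against 8.21 to 11.43. Also lower were 10 of 11 mast cell and eosinophil markers, at 8.94 to 9.94 against 9.08 to 10.82, 6 of 7 erythroid markers, at 6.42 to 6.96 against 6.99 to 7.44, and 7 of 10 T and natural killer cell markers, at 5.87 to 6.24 against 6.26 to 6.53. The 3 Y-linked genes, which follow the sex of the mice, were all higher with MN1 in mean, by 0.86 to 1.83 (log2). Their mean level was 7.11, 6.12 and 7.57 on MN1 replicates 1 to 3, and 5.78, 3.78 and 7.04 on those of the empty vector. The groups overlapped and the arrays differed within each group, but each MN1 array lay above the empty vector array of its number. The lowest, 3.78, was on empty vector replicate 2, which was also the lowest array of Mllt3. MN1 replicate 2, at 6.12, lay below empty vector replicate 3, at 7.04, whereas Mllt3 measured 8.37 and 7.39 on these arrays. Whether the sex of the mice plays a part in the differences was not tested. None of the marker genes passed an adjusted p of 0.05 (limma), and log2 values of this kind have no 0 that would mark a gene as absent.

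The MLL complex itself was spread evenly around 0. Of 12 measured genes, 7 lay above 0 and 5 below it. Their median difference was 0.0046 (log2) against -0.03 over all genes, or 0.04 over all genes without the dimmest 40%. By limma, 0 passed an adjusted p of 0.05. At an unadjusted p under 0.05, 1 was higher and 0 lower, where 4.17% of all genes were higher and 4.23% lower. That count was 0 without empty vector replicate 3. It was 2 higher without MN1 replicate 1 or without empty vector replicate 1, and 1 higher and 1 lower without MN1 replicate 2. Kmt2a, the MLL gene, measured 9.72, 8.97 and 8.68 with MN1 and 8.78, 8.74 and 9.02 with the empty vector, with MN1 replicate 1 highest, a difference of 0.28 ± 0.27 (SE, log2). Hcfc2, a host cell factor homolog found in MLL complexes, had the smallest unadjusted p of this list and differed by 0.33 ± 0.10. Its MN1 arrays lay wholly above the empty vector arrays, as held for 5.71% of all genes. The acetyltransferase gene Kat8 differed by 0.37 ± 0.19, the Myc partner gene Max by 0.25 ± 0.13 and the host cell factor gene Hcfc1 by -0.28 ± 0.16, each with overlapping groups.

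Elongation genes outside the members were mostly within 0.25 of 0. Of 17 measured, 6 lay above 0 and 11 below it, the median was -0.03, and 0 passed the adjusted or the unadjusted threshold of 0.05 (limma). Leaving out MN1 replicate 3 took the median to -0.082, and empty vector replicate 3 to 0.0048 with 9 of 17 above 0. In these sets Aff2 passed the unadjusted threshold, as did Aff3 without empty vector replicate 2. The Aff1 relative Aff2 differed by -0.57 ± 0.25 (SE, log2), between levels of 4.79 and 5.36, and the Ell relative Ell3 by -0.20 ± 0.09, between 4.65 and 4.85. Both measured under the array medians, where fold changes are understated by the method that made the values. Ccnt2, a cyclin of P-TEFb, differed by 0.23 ± 0.14 and Larp7, which holds P-TEFb inactive, by -0.24 ± 0.16. Among 10 genes of the polymerase associated factor complex and its histone H2B ubiquitination partners, 6 lay above 0 and 4 below, the median was 0.02, and 0 passed either threshold. The signs there also turned with single arrays, with a median of -0.045 without MN1 replicate 3. Paf1 itself differed by -0.14 ± 0.09 with its MN1 arrays wholly below, as held for 10.3% of all genes. Leo1 differed by 0.10 ± 0.10, Ube2b by 0.20 ± 0.24 and Ctr9 by -0.09 ± 0.12.

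Other MLL fusion partners, which have varied normal functions, were more often higher than lower. Of 26 measured, 18 lay above 0 and 8 below it, where 43.3% of all genes lay above 0. Over all genes the median was -0.03, or 0.04 without the dimmest 40%. That of the list was 0.05, and 0 passed the adjusted or the unadjusted threshold (limma). Leaving out MN1 replicate 1 took the median to 0.026 and MN1 replicate 2 to 0.10, and 1 or 2 genes passed the unadjusted threshold in 5 of the 6 sets with 1 array fewer. Arhgef12 passed it once arrays were centred on their medians. The guanine nucleotide exchange factor gene Arhgef12 differed by 0.89 ± 0.39 (SE, log2), with MN1 replicate 1 at 8.62 and the other arrays at 6.53 to 7.94, and Mllt11 by 0.31 ± 0.15. The septin gene Septin2 differed by 0.19 ± 0.11 and the adherens junction gene Afdn by 0.39 ± 0.25. Of 5 genes of YEATS domain proteins and AF9 or ENL partners, 4 lay above 0 and 1 below it, and the median was 0.06. The signs of the small differences in this list turned with single arrays, and its median was -0.011 without MN1 replicate 2. The 1 lower gene, Yeats4, which encodes a further YEATS domain reader, measured 8.61, 8.85 and 8.67 with MN1 and 9.04, 8.92 and 9.22 with the empty vector. Its MN1 arrays lay wholly below the empty vector arrays, as held for 10.3% of all genes. It differed by -0.35 ± 0.12 with an unadjusted p of 0.0259 and an adjusted p of 0.584 (limma). Bcor differed by 0.43 ± 0.27, Phf6 by 0.27 ± 0.30 and Yeats2 by 0.06 ± 0.15.

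Known target genes of MLL fusions had a median difference of 0.22 on the log2 scale against -0.03 over all genes. It was 0.11 without empty vector replicate 2, and the median over all genes was 0.04 without the dimmest 40%. Of 25 measured, 16 were higher and 9 lower, 0 passed an adjusted p of 0.05, and 6 were higher and 0 lower at an unadjusted p under 0.05 (limma), where 4.17% of all genes were higher and 4.23% lower. That count was 3 higher without empty vector replicate 2 and 4 when either MN1 replicate 2 or empty vector replicate 3 was left out, and 1 gene, Satb1, was lower at that p without MN1 replicate 3 or without empty vector replicate 1. Among the 6 were Zfp521 and Tapt1 besides the 4 described next; only Flt3 and Lmo2 kept that p whichever array was left out. The MN1 arrays lay wholly above for 5 of the targets and wholly below for 0, where this held for 5.71% and 10.3% of all genes. They lay above for 9 without MN1 replicate 1 or without empty vector replicate 1, and below for 2 without MN1 replicate 3. Groups overlap less easily with fewer arrays, and the shares of all genes were not taken for those sets. The 5.71% and 10.3% are therefore no measure for these counts. Flt3, which encodes a cytokine receptor kinase of progenitor cells, measured 7.02, 8.49 and 8.39 with MN1 and 6.05, 6.38 and 5.97 with the empty vector, and like Mllt3 had its lowest MN1 value on replicate 1. The difference was 1.83 ± 0.39 (SE, log2) for Flt3, 0.49 ± 0.12 for the transcriptional adaptor gene Lmo2, 0.94 ± 0.34 for the Hox cofactor gene Meis1 and 0.83 ± 0.31 for the transcription factor gene Mef2c. Flt3 and Lmo2 also stand among the stem and progenitor markers. The Hoxa genes on the list, the best known of the targets, differed by -0.13 ± 0.26 for Hoxa5, -0.15 ± 0.14 for Hoxa7, 0.01 ± 0.26 for Hoxa9 and -0.02 ± 0.12 for Hoxa10. The genome organiser gene Satb1 had the largest negative difference, -1.07 ± 0.46, with overlapping groups. Kmt2a, Zfp521, Tapt1, the Hoxa genes and Satb1 were singled out after their values were seen.

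**Figure D5:**
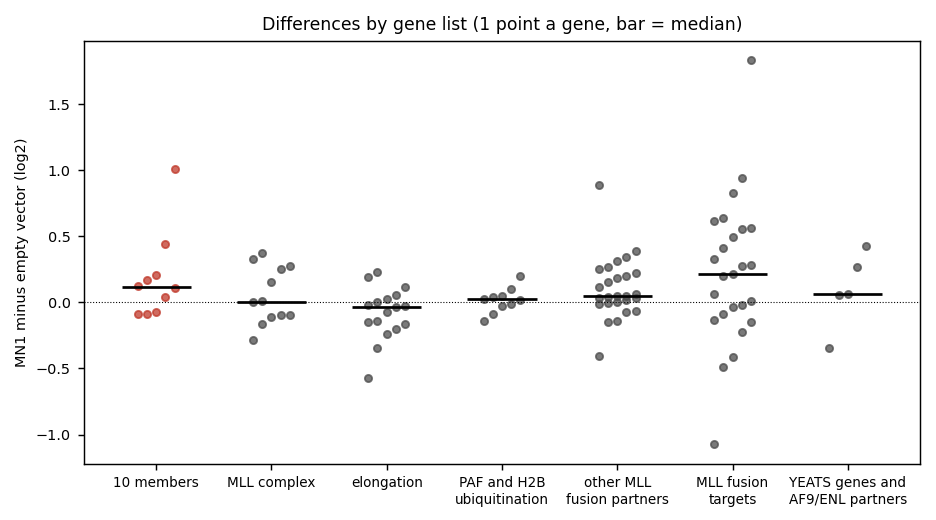
Difference of each measured gene, log2 level with MN1 minus that with the empty vector, for the 10 members (red) and 6 related lists (grey), with a bar at each median. The median was 0.12 for the members and 0.22 for the MLL fusion targets, and from -0.03 to 0.06 for the other lists.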

How the data were processed

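One-colour Affymetrix whole-transcript arrays were hybridised with cDNA made from 200 ng of total RNA, per the labels' protocols. The authors deposited log2 expression values per probe set; per the submitters' processing notes these are RMA values, which are corrected for background, normalized between arrays and summarised over probes. Software and version are not given. That they are log2 values was taken from their range, 2.29 to 14.80. RMA compresses dim values, which understates fold changes of dim genes. Of 35557 probe sets, 21789 carry 1 gene symbol in the platform annotation of 2016, 1621 several and 12147 none there; the highest-mean probe set per gene was kept (19938 genes). All 6 columns were used.

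Groups and replicate numbers came from the sample titles. The test was limma (version 3.58.1, R 4.3.3; lmFit and eBayes, two-sided, no block), adjusted by Benjamini-Hochberg over all genes, threshold 0.05. Residual degrees of freedom were 4 and prior ones 2.43. The labels do not say that arrays came from separate animals, so p-values measure the spread between these arrays.

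The members and lists were chosen with earlier results of these data known. Of 102 genes in the 6 related lists, 95 were measured; over all lists, 5 genes were matched through their gene ID. Named are all members, Mn1, the up to 4 genes per related list with the smallest unadjusted p, and the 3 genes nearest to Mllt3; Kmt2a, Zfp521, Tapt1, Satb1 and the Hoxa genes were added after their values were seen. On simulated data for this comparison (10 runs of 19938 genes, 200 changed, independent noise) limma called 59.8% of the genes given a log2 change of 1 and 90.2% of those given 2; real arrays share noise, so these shares may not carry over. Alternatives were the replicate block, 2 scalings, a filter on dim genes, the mean of probe sets, another prior, array weights and each array left out.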

Additional observations from a re-analysis of the deposited data

How the results depend on the processing

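No gene and no member passed an adjusted p of 0.05 under any alternative run (0 higher and 0 lower in each, limma); at an adjusted p under 0.1 the counts were also 0 with all arrays. The smallest adjusted p over all genes ran from 0.0989 without MN1 replicate 1 to 0.935 without empty vector replicate 2. Mllt3 kept its direction throughout, with an adjusted p of 0.43 to 0.935. Over all genes the replicate numbers paired the arrays only weakly: deviations of same-numbered arrays correlated at 0.13, 0.07 and 0.32. MN1 replicate 2 correlated better with empty vector replicate 1, at 0.44. The Y-linked genes, though, ordered the arrays by number alike in both groups. Their mean was 7.11, 6.12 and 7.57 on MN1 replicates 1 to 3, and 5.78, 3.78 and 7.04 on those of the empty vector. Whether same-numbered arrays came from the same experiment is not stated, and the main fit had no block. With the replicate number as a block, Mllt3 differed by 1.01 ± 0.18 (SE, log2; adjusted p = 0.5) and Ell by 0.44 ± 0.13 (adjusted p = 0.5, unadjusted p 0.025; limma), and the counts of called genes stayed 0.

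Signs of small differences turned with single arrays. Leaving out each array in turn, the log2 difference ran from -0.21 to 0.070 for Mllt1, -0.22 to 0.15 for Mllt6, -0.25 to 0.38 for Dot1l, -0.26 to 0.21 for Men1, -0.12 to 0.35 for Psip1, -0.032 to 0.33 for Aff1 and -0.0022 to 0.27 for Aff4; fewer samples enter each of these fits. Dot1l was also -0.021 after quantile normalization and -0.033 with array weights; the cause was not tested. The median of the polymerase associated factor list ran from -0.045 to 0.048 and that of the MLL fusion targets from 0.11 to 0.27. At an unadjusted p under 0.05, 400 genes were lower with median-centred arrays and 251 without the dimmest 40%, against 843 in the analysis as reported; with each array left out, 508 to 1044 genes were higher and 398 to 1037 lower. No detection call was used, so signal over background of the dim genes Aff2 and Ell3 is unknown.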
